A study of Mus musculus with 18 samples.

Results

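The genes described here are 32 genes of inhibitory signalling by gamma-aminobutyric acid (GABA) in mouse brain. They comprise 11 GABA-A receptor subunits, 2 GABA-B receptor subunits, 5 genes of GABA synthesis, transport and breakdown, 7 transcription factors of GABA neuron lineages, 5 interneuron markers and synapse partners, and a postsynaptic scaffold with a chloride transporter. A gene was included when a probe of the array carried its current or former symbol, and it was represented by its brightest probe among those detected (detection p under 0.05) on at least 3 arrays. Of the 32 genes, 29 had a named probe and 20 were measured by this rule, out of 10517 named genes measured on the array.

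RNA was taken from cortex, hippocampus and hypothalamus of male mice aged 4 to 5 months. Knockout mice lacked T1R3 (gene Tas1r3), a subunit of the sweet and umami taste receptors; the line came from another laboratory and had been crossed to C57BL/6J for 4 or more generations. Wild-type mice were C57BL/6J, and neither genotype carried a further stated allele or treatment. Each of the 6 groups held 3 arrays from 3 animals, giving 18 arrays of total RNA on Illumina bead arrays. The labels name no cell type to which the deletion is restricted. The Tas1r3 probe was detected on 1 of 18 arrays, a wild-type cortex array, and therefore did not check the genotype labels. Mean signal per array ranged from 788 to 1388 and 52.1% to 58.1% of probes were detected. The region labels were set against marker genes: of those measured, 14 of 15 hippocampal and 19 of 20 hypothalamic markers were highest in their own region in wild type, as were 10 of 17 cortical markers. Levels below are background-corrected, quantile-normalised log2 intensities, with SD over 3 arrays, and each probe is compared only with itself.

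GABA is made from glutamate by glutamate decarboxylases, loaded into vesicles, released, and then taken up and broken down by neurons and astrocytes. GABA-A receptors are chloride channels built from 5 subunits whose identity sets their location and kinetics, with delta-containing receptors lying outside synapses, while GABA-B receptors act through G proteins. Cortical and hippocampal interneurons arise from ventral forebrain progenitors that express Dlx genes, whereas many hypothalamic neurons are themselves GABA-producing. In bulk tissue a lower level can come from fewer cells of a type or from less RNA per cell, and these cannot be told apart here.

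Promoter windows are shown for 4 of these genes. Dlx1 and Dlx2 are the neighbouring pair with the smallest knockout p-values in cortex, and Gabre and Gabrg1 are 2 of the receptor subunits with higher levels in hypothalamus. Each window holds 250 bases before and 50 after the annotated start, 5′ to 3′ on the gene's strand, from RefSeq on GRCm38.p6, where 27 of the 32 genes had one. Capitals mark exact matches on either strand to 4 motifs. The homeodomain core is TAATTA and the GC box is GGGCGG, which may appear as its reverse complement. The TATA box is TATAAA. The E-box is CACGTG.

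Dlx1, chr2:71529195-71529494, plus strand: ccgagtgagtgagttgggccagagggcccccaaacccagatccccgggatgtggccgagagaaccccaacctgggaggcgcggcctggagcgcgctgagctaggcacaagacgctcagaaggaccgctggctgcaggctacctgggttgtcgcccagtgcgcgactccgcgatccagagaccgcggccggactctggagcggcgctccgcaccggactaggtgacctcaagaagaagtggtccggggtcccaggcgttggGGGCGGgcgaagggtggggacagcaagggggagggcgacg
Dlx2, chr2:71546705-71547004, minus strand: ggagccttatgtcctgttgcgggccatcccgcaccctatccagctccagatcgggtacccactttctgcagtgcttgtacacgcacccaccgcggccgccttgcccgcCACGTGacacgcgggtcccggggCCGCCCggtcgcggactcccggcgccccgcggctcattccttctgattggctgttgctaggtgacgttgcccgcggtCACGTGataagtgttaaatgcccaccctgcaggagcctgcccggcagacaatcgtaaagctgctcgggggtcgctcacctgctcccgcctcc
Gabre, chrX:72274672-72274971, minus strand: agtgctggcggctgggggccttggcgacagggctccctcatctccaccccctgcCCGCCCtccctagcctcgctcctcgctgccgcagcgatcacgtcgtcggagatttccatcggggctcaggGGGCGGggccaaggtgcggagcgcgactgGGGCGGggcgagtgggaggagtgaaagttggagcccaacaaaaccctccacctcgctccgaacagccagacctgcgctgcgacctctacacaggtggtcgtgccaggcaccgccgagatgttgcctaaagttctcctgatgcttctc
Gabrg1, chr5:70842568-70842867, minus strand: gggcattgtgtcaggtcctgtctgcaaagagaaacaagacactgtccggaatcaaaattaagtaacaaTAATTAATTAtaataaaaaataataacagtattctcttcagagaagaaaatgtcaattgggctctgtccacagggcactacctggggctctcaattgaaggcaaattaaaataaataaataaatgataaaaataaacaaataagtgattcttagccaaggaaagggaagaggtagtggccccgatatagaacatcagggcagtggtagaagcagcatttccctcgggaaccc

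No protein-coding gene lies between Dlx1 and Dlx2 in the annotation. The Dlx1 window was 69.3% G or C with 27 CpG dinucleotides and held 1 GC box; the Dlx2 window was 66.3% G or C with 29 CpG and held 1 GC box and 2 E-boxes. The Gabre window was 66.7% G or C with 24 CpG and held 3 GC boxes. The Gabrg1 window stood apart from these, with 38.3% G or C, 3 CpG and 2 overlapping TAATTA matches. Among 32851 windows of the same length, TAATTA occurred in 5.29%, GGGCGG in 35.7%, TATAAA in 13.6% and CACGTG in 7.15%. The genes described here had 40 windows, of which 1 held TAATTA, 20 GGGCGG, 7 TATAAA and 3 CACGTG. These matches describe letters in the window and not bound sites.

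Of the 32 genes, 12 gave no level. No probe carried the symbol of Gabbr2 (a GABA-B subunit), Dlx6 (a homeodomain factor) or Erbb4 (a neuregulin receptor of interneurons). Probes for Gabra2, Gabra4, Gabra5, Gabrg3 and Gabrq (GABA-A subunits), Gad2 (a glutamate decarboxylase), and Dlx5, Lhx6 and Sox6 (lineage factors) were not above background on any of 18 arrays. The Gad2 probe had a median raw signal of 76.3 and the Gabra2 probe one of 83.9, so these probes set a bound only and say nothing on whether the genes are used. Just inside the rule, Gabre was detected on 6 arrays, all from hypothalamus. It was measured through that region alone, so it is left out of the counts over regions below unless said to be included. Gabrd was detected on 14 arrays and Lhx8 on 17, and the remaining 17 genes on all 18.

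In wild-type brain the GABA genes differed widely between regions, most often between hypothalamus and the others, as did all probes tested. Of the 19 measured genes other than Gabre, 13 had their highest mean in hypothalamus, 4 in cortex and 2 in hippocampus. The share of all probes highest in hypothalamus was not computed. An F test over the 3 regions called 15 of 19 at an adjusted p under 0.05, beside 54.7% of all 15476 probes tested. The 4 not called were Gabbr1, Gad1, Lhx8 and Slc12a5, all among the 13 with their highest mean in hypothalamus. Cortex against hypothalamus gave 14 of 19 genes (5 higher and 9 lower in cortex; background 49.5%, 23.9% higher and 25.6% lower), hippocampus against hypothalamus 13 (4 higher and 9 lower in hippocampus; background 42%, 19.9% higher and 22.1% lower), and cortex against hippocampus 6 (4 higher and 2 lower in cortex; background 18.6%, 9.68% higher and 8.88% lower). The median difference of the 19 genes was -0.47 log2 for cortex minus hypothalamus against -0.011 for all probes, and -0.37 against -0.016 for hippocampus minus hypothalamus.

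**Figure D1:**
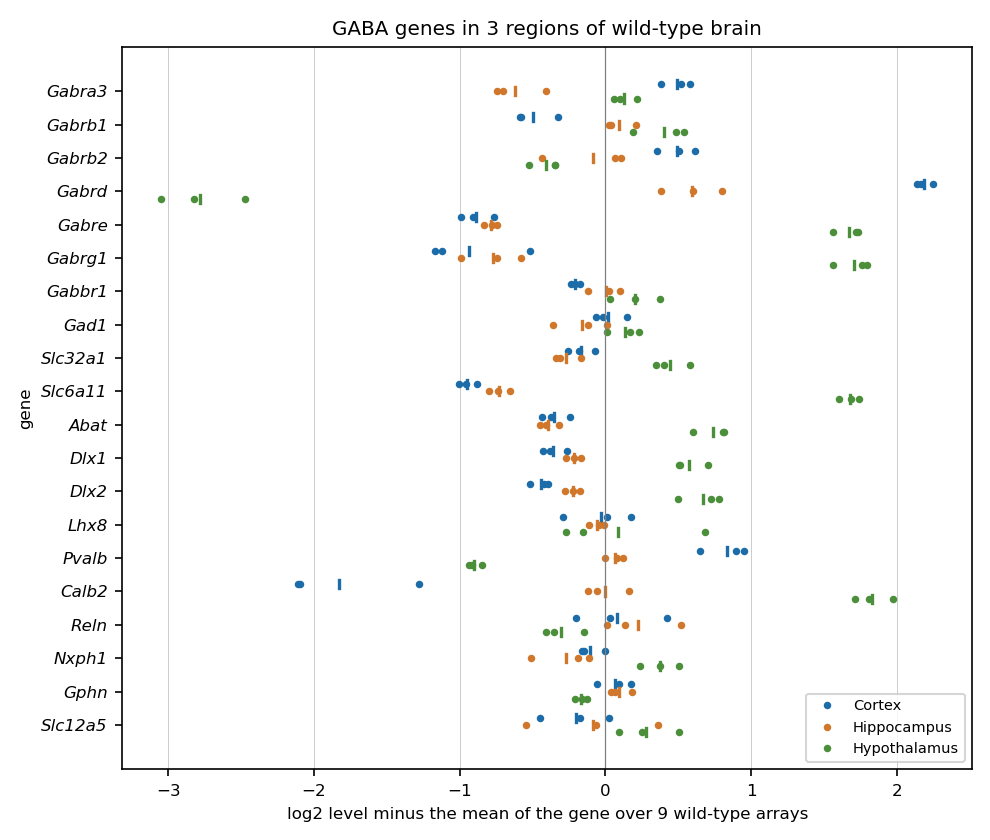
Levels of the 20 measured genes on the 9 wild-type arrays, as log2 level minus the gene's own mean over those arrays (x axis); points are arrays, short bars are means of 3 arrays, and colours are regions. Gabrd spans the widest range, with cortex highest and hypothalamus lowest, while Gabre, Gabrg1, Slc6a11 and Calb2 lie highest in hypothalamus; Gabre was not above background in cortex or hippocampus.

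Among GABA-A subunits, Gabrd (delta, the subunit of extrasynaptic receptors) had the steepest gradient. On the wild-type arrays it read 10.84, 10.88 and 10.96 in cortex, 9.31, 9.09 and 9.51 in hippocampus, and 5.89, 5.66 and 6.24 in hypothalamus, where 1 of 3 arrays detected it. No array of one region overlapped another. Cortex exceeded hippocampus by 1.59 ± 0.18 log2 (SE; 3.01-fold; adjusted p = 1.5e-05) and hypothalamus by 4.97 ± 0.18 (adjusted p = 4.6e-12), a size that rests on values at background in 2 of the 3 hypothalamus arrays. A second Gabrd probe gave 1.57 for cortex minus hippocampus. Gabrb2 (beta2, common at synapses) was also highest in cortex, at 9.39 ± 0.13 (SD, n = 3), against 8.81 ± 0.30 in hippocampus and 8.49 ± 0.10 in hypothalamus. Its excess over hippocampus, 0.58 ± 0.16 (SE; adjusted p = 0.0172), was lost when wild-type cortex replicate 1 (adjusted p = 0.0513) or 2 (0.067) or hippocampus replicate 3 (0.0905) was left out.

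Gabra3 (alpha3) was lowest in hippocampus. Its level was 10.30 ± 0.10 in cortex, 9.19 ± 0.19 in hippocampus and 9.93 ± 0.081 in hypothalamus (SD, n = 3). Cortex exceeded hippocampus by 1.11 ± 0.20 (SE; adjusted p = 0.000929), and hippocampus lay below hypothalamus by -0.74 ± 0.20 (adjusted p = 0.00648). Cortex and hypothalamus differed by 0.37 ± 0.20, which did not pass the test (adjusted p = 0.137; 95% interval -0.053 to 0.78).

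The beta1, gamma1 and epsilon subunits ran the other way. Gabre (epsilon) read 7.46, 7.30 and 7.47 in hypothalamus and was not above background on any wild-type cortex or hippocampus array. Its hypothalamic level was at least 2.50-fold above cortex and at least 2.74-fold above hippocampus, bounds set by the dimmest probes detected on those arrays. These are given as a description, because the rule measured Gabre through hypothalamus alone. Gabrg1 (gamma1) read 9.65, 9.62 and 9.42 in hypothalamus, against 6.74, 7.34 and 6.69 in cortex and 7.11, 7.28 and 6.87 in hippocampus. The hypothalamic arrays all lay far above the others, while cortex and hippocampus overlapped. Cortex was lower than hypothalamus by -2.65 ± 0.23 (6.26-fold; adjusted p = 1e-07) and hippocampus by -2.48 ± 0.23 (5.58-fold; adjusted p = 2.6e-07). Gabrb1 (beta1) was 10.44 ± 0.15 in cortex, 11.03 ± 0.10 in hippocampus and 11.34 ± 0.19 in hypothalamus. Its deficit in cortex passed against hypothalamus (-0.90 ± 0.16; adjusted p = 0.000178) and against hippocampus (-0.59 ± 0.16; adjusted p = 0.0146), although the latter was lost without wild-type cortex replicate 1 (adjusted p = 0.0563) or 3 (0.0587) or hippocampus replicate 2 (0.0643). Gabbr1, the ligand-binding GABA-B subunit, had similar means of 10.26 ± 0.032, 10.47 ± 0.11 and 10.67 ± 0.17, and no pair of regions passed the test.

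The GABA-handling genes had their highest means in hypothalamus, and all but Gad1 passed the test against both other regions. Gad1, a glutamate decarboxylase, had levels of 13.70 ± 0.11 in cortex, 13.52 ± 0.19 in hippocampus and 13.81 ± 0.11 in hypothalamus; its hippocampus to hypothalamus difference of -0.29 ± 0.12 lay just outside the threshold (adjusted p = 0.0529). That difference passed with the replicate number as a block (adjusted p = 0.0102), without background correction (0.0383) and with array weights (0.0415). It also passed when wild-type hippocampus replicate 2 (0.0276) or hypothalamus replicate 3 (0.0416) was left out. In 9 of 14 alternatives it stayed outside the threshold (adjusted p up to 0.237). A second Gad1 probe was 1 of these, at -0.27 ± 0.15 (adjusted p = 0.158). Slc32a1, the vesicular GABA transporter, was lower in cortex than in hypothalamus by -0.61 ± 0.11 (adjusted p = 0.000182) and lower in hippocampus by -0.72 ± 0.11 (adjusted p = 4.9e-05). Slc6a11, the GABA transporter of astrocytes, read 11.91, 11.99 and 12.04 in hypothalamus, 9.43, 9.30 and 9.35 in cortex and 9.66, 9.51 and 9.57 in hippocampus. That is a 6.17-fold excess over cortex (log2 difference of cortex -2.62 ± 0.12; adjusted p = 6.8e-11) and 5.30-fold over hippocampus (adjusted p = 2.3e-10). Abat, the transaminase that breaks GABA down, read 12.84 ± 0.099 in cortex, 12.80 ± 0.064 in hippocampus and 13.93 ± 0.12 in hypothalamus, differences of -1.09 ± 0.12 and -1.13 ± 0.12 (adjusted p = 1e-06 and 8.1e-07).

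The lineage factors Dlx1 and Dlx2, homeodomain proteins of forebrain GABA neurons, shared a profile. Dlx1 was 11.12 ± 0.11 in hypothalamus, 10.19 ± 0.084 in cortex and 10.33 ± 0.053 in hippocampus. Dlx2 was 9.02 ± 0.15 in hypothalamus, 7.91 ± 0.068 in cortex and 8.13 ± 0.053 in hippocampus. Cortex was lower than hypothalamus by -0.93 ± 0.11 for Dlx1 and -1.11 ± 0.12 for Dlx2 (adjusted p = 3.4e-06 and 1.5e-06), and neither gene differed past the test between cortex and hippocampus (adjusted p = 0.426 and 0.239). Lhx8, a factor of cholinergic and GABA lineages of the ventral forebrain, lay at 6.35 ± 0.24, 6.32 ± 0.053 and 6.47 ± 0.52 in cortex, hippocampus and hypothalamus, near the detection limit, and no pair passed.

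The 2 calcium-binding markers of interneuron classes had opposite gradients. Calb2 (calretinin) read 14.01, 13.92 and 14.18 in hypothalamus, 12.15, 12.08 and 12.36 in hippocampus, and 10.09, 10.92 and 10.11 in cortex, with no overlap between regions. Cortex was 12.7-fold below hypothalamus (-3.66 ± 0.28; adjusted p = 2.5e-08) and 3.54-fold below hippocampus (-1.82 ± 0.28; adjusted p = 0.000253). Pvalb (parvalbumin, of fast-spiking interneurons) read 13.06, 12.81 and 13.11 in cortex, 12.16, 12.28 and 12.24 in hippocampus, and 11.31, 11.22 and 11.25 in hypothalamus, again without overlap. Cortex exceeded hypothalamus by 1.73 ± 0.14 (3.32-fold; adjusted p = 5.4e-08) and hippocampus by 0.77 ± 0.14 (1.70-fold; adjusted p = 0.0012).

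Reln, a secreted glycoprotein of interneurons and other cells, was lower in hypothalamus (11.21 ± 0.14) than in cortex (11.60 ± 0.32; adjusted p = 0.0376) and hippocampus (11.73 ± 0.26; adjusted p = 0.00851). Nxph1, a neurexin ligand of inhibitory neurons, was higher in hypothalamus (12.08 ± 0.13) than in cortex (11.61 ± 0.086) or hippocampus (11.44 ± 0.21), by -0.47 ± 0.11 and -0.64 ± 0.11 seen from those regions (adjusted p = 0.00235 and 0.00023). Gphn, the gephyrin scaffold that anchors GABA-A receptors, differed by little, with means of 11.29 ± 0.12, 11.31 ± 0.079 and 11.05 ± 0.041 in cortex, hippocampus and hypothalamus (adjusted p = 0.0213 and 0.0139 against hypothalamus). Of 3 Gphn probes, 2 gave calls and the third did not (adjusted p = 0.395 and 0.598). The Reln and Gphn calls were the only ones against hypothalamus lost in any alternative, for example without wild-type cortex replicate 2 (Reln 0.22, adjusted p = 0.215; Gphn 0.18, adjusted p = 0.0987) or hippocampus replicate 1 (Reln 0.38, adjusted p = 0.0514; Gphn 0.22, adjusted p = 0.063). Slc12a5, the neuronal chloride extruder that makes GABA inhibitory, read 9.80 ± 0.24, 9.91 ± 0.45 and 10.28 ± 0.21 and passed in no pair.

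The knockout group means, which the wild-type differences do not use although the fit shares its spread estimate with them, showed the same directions. Gabre, measured through hypothalamus alone, is left out here. All other differences called in wild type had the same sign between the knockout group means. They numbered 6 for cortex against hippocampus, 14 for cortex against hypothalamus and 13 for hippocampus against hypothalamus. The share of all probes called in wild type that kept their sign was not computed. Knockout arrays overlapped between cortex and hippocampus for Gabrb2 and Pvalb, and between cortex and hypothalamus for Gabrb2 and Gphn. Some differences were smaller in knockout: Gphn was 0.038 for knockout cortex minus hypothalamus beside 0.23 in wild type, and for cortex minus hippocampus Gabrb2 was 0.27 beside 0.58 and Pvalb 0.37 beside 0.77. Gabrd averaged 10.69 in knockout cortex, 9.14 in hippocampus and 5.84 in hypothalamus. Calb2 showed the largest shortfall in size, -1.07 between knockout cortex and hippocampus beside -1.82 in wild type.

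Lists of related genes gave the setting in wild type. Of 37 further GABA signalling genes 22 were measured, and 3 were called for cortex against hippocampus, 11 for cortex against hypothalamus and 10 for hippocampus against hypothalamus, near the shares of all probes (18.6%, 49.5% and 42%). Of 32 further interneuron genes 21 were measured, with 6, 16 and 14 called. Against hypothalamus, the calls of both lists had the opposite balance to the genes described above. In the GABA signalling list 7 of the 11 were higher in cortex and 8 of the 10 higher in hippocampus. In the interneuron list 12 of the 16 were higher in cortex and 12 of the 14 higher in hippocampus.

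Loss of T1R3 left most GABA genes without a difference past the test. In cortex 1 of 20 was called, Dlx2, which was higher in the knockout (background 2.69% of all probes; 1.15% higher). No gene passed in the other regions (background 1.25% for hippocampus and 1.6% for hypothalamus) or in the mean of the 3 regions (6.02%), and no effect was called as differing between regions (0.0452%). At an unadjusted p under 0.05 limma gave 5 cortical genes (15.2% of all probes), 1 hippocampal (10.2%) and 2 hypothalamic genes (10.4%). The same limit gave 3 genes in the mean of the regions (19%) and 2 in the interaction (6.92%). The 2 in the interaction were Dlx2 and Gabre (limma F test, unadjusted p = 0.0072 and 0.0365). Gabre is included in the knockout counts and medians of 20 genes here and below, although only hypothalamus arrays detected it. The median knockout difference of the 20 genes was 0.075 log2 in cortex, 0.00029 in hippocampus and 0.064 in hypothalamus, against 0.011, 0.0061 and 0.017 for all probes. The 95% interval of a gene extended 0.30 log2 to either side in the median. The region contrasts share no arrays with one another, but the average is built from all 3.

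**Figure D2:**
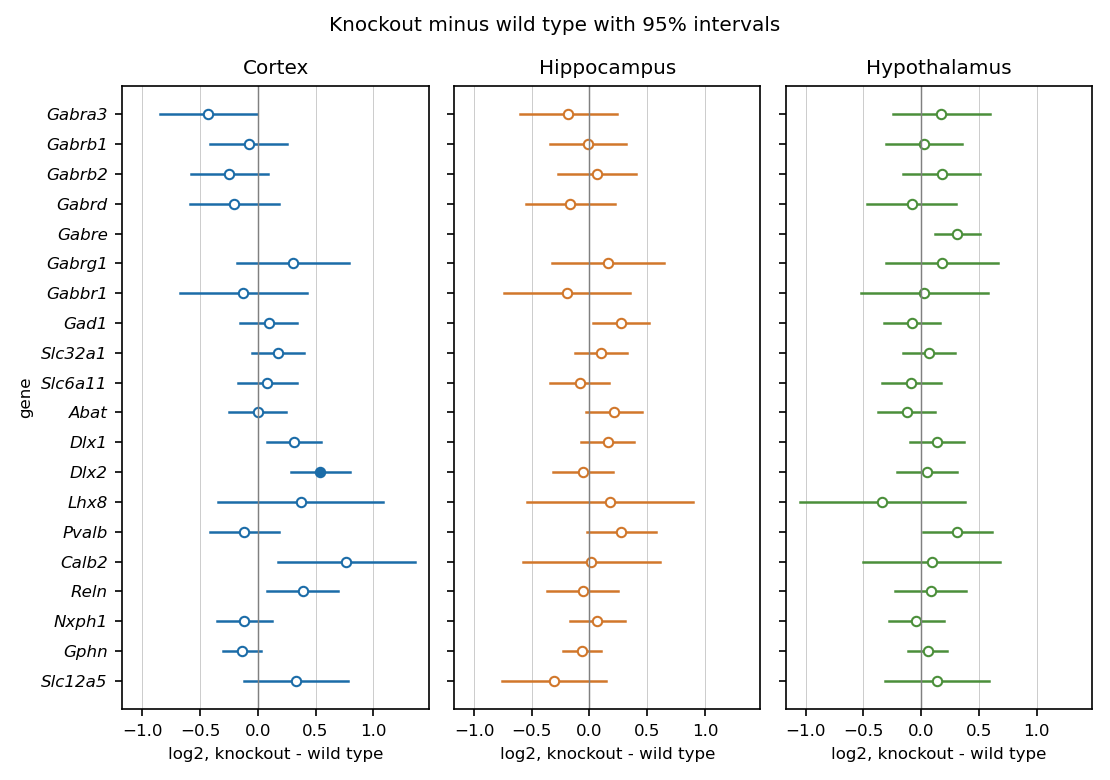
Knockout minus wild type (log2, x axis) with 95% intervals from the limma fit for the measured genes in 3 regions, 3 arrays per group; a filled point passed an adjusted p of 0.05. Dlx2 in cortex is the single filled point, at 0.54; Gabre is not drawn in cortex and hippocampus, where no array detected it.

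Dlx2 read 7.93, 7.83 and 7.96 on wild-type cortex arrays and 8.49, 8.29 and 8.56 on knockout cortex arrays. All 3 knockout arrays lay above all 3 wild-type arrays. The difference was 0.54 ± 0.12 log2 (SE; 1.46-fold; adjusted p = 0.0254, 95% interval 0.28 to 0.80). It was -0.054 ± 0.12 in hippocampus and 0.051 ± 0.12 in hypothalamus. The limma F test of a difference between the 3 effects gave an adjusted p of 0.461. The cortical call did not hold when knockout replicate 3 (adjusted p = 0.118) or wild-type replicate 1 (0.0843), 2 (0.0778) or 3 (0.0772) was left out, with differences of 0.48 to 0.57.

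Dlx1, beside Dlx2 on chromosome 2, differed in the same direction without passing. It read 10.12, 10.29 and 10.17 in wild-type and 10.69, 10.30 and 10.51 in knockout cortex. The groups did not overlap, with a difference of 0.31 ± 0.11 (1.24-fold; adjusted p = 0.171). Its average over the 3 regions was 0.20 ± 0.063 (adjusted p = 0.0746), and this passed without knockout cortex replicate 2 (0.24; adjusted p = 0.0271) or knockout hippocampus replicate 3 (0.23; adjusted p = 0.0378). Lhx8, the other lineage factor measured, read 7.77, 5.87 and 6.51 in knockout against 6.09, 6.56 and 6.39 in wild-type cortex, so knockout replicate 1 alone stood high (difference 0.37 ± 0.34; adjusted p = 0.661).

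Calb2 had the largest cortical difference in size, with wide scatter. It read 10.09, 10.92 and 10.11 in wild-type and 11.75, 10.30 and 11.37 in knockout cortex. The groups overlapped, and the difference of 0.77 ± 0.28 (1.70-fold) did not pass (adjusted p = 0.188), although it did without knockout replicate 2 (1.19; adjusted p = 0.00605). Reln read 11.31, 11.93 and 11.54 in wild-type and 11.94, 12.03 and 11.98 in knockout cortex. The knockout arrays were all higher, by 0.39 ± 0.15 (adjusted p = 0.204), and the difference passed without wild-type replicate 2 (0.56; adjusted p = 0.0472).

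Markers of cortex and of other brain regions varied among these cortex arrays. Of 17 cortical markers measured, 4 had a higher mean in knockout cortex (median -0.18) and 1 was called lower (background 2.69% of all probes). In hippocampus 5 of the 17 had a higher mean in the knockout (median -0.12). Relative to the wild-type mean, the cortical mean was -0.23, -0.046 and -0.075 on the knockout cortex arrays and 0.010, -0.017 and 0.0065 on the wild-type ones, in replicate order. Of 22 striatal markers 16 were measured; none was called, but all 16 had a higher mean in knockout cortex, with a median of 0.40 log2. Relative to the wild-type mean, the striatal mean was 1.22, -0.46 and 0.57 on the knockout arrays and -0.34, 0.48 and -0.14 on the wild-type arrays, in replicate order. Their summed signal ranged from 21722 to 53271 in knockout and from 23973 to 33969 in wild type. Hypothalamic markers, 20 of 26 measured, had a higher mean in knockout cortex for 17 (median 0.22). So did 15 in hippocampus (median 0.088) and 17 in hypothalamus (0.085), so that direction was not particular to cortex. On the cortex arrays they gave 0.83, -0.10 and 0.34 in knockout and -0.20, 0.33 and -0.13 in wild type. Summed signals there were 28486 to 43265 in knockout and 25146 to 31896 in wild type. Of the 20, 10 were detected on all 6 cortex arrays (the peptide genes Oxt, Cartpt and Trh among them), 1 on 3, 2 on 2 (Pmch and Gal) and 7 on none (Hcrt, Avp, Pomc, Ghrh, Lhx1, Foxb1 and Lhx9). Calb2 was highest on the same 3 arrays, knockout 1, knockout 3 and wild type 2. Dlx2 on knockout replicate 2, where striatal markers were lowest, was 8.29, above all wild-type arrays. It was higher still on knockout replicates 1 (8.49) and 3 (8.56), where they were raised. Wild-type replicate 2, where they were also raised, had the lowest Dlx2. Without those 3 arrays, an alternative added after seeing the data, Dlx2 differed by 0.35 ± 0.18 (adjusted p = 0.616) on 1 knockout and 2 wild-type arrays. The lone knockout array is there assumed to vary like the other groups, which give the SE. The part of tissue composition in these differences was not tested further.

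**Figure D3:**
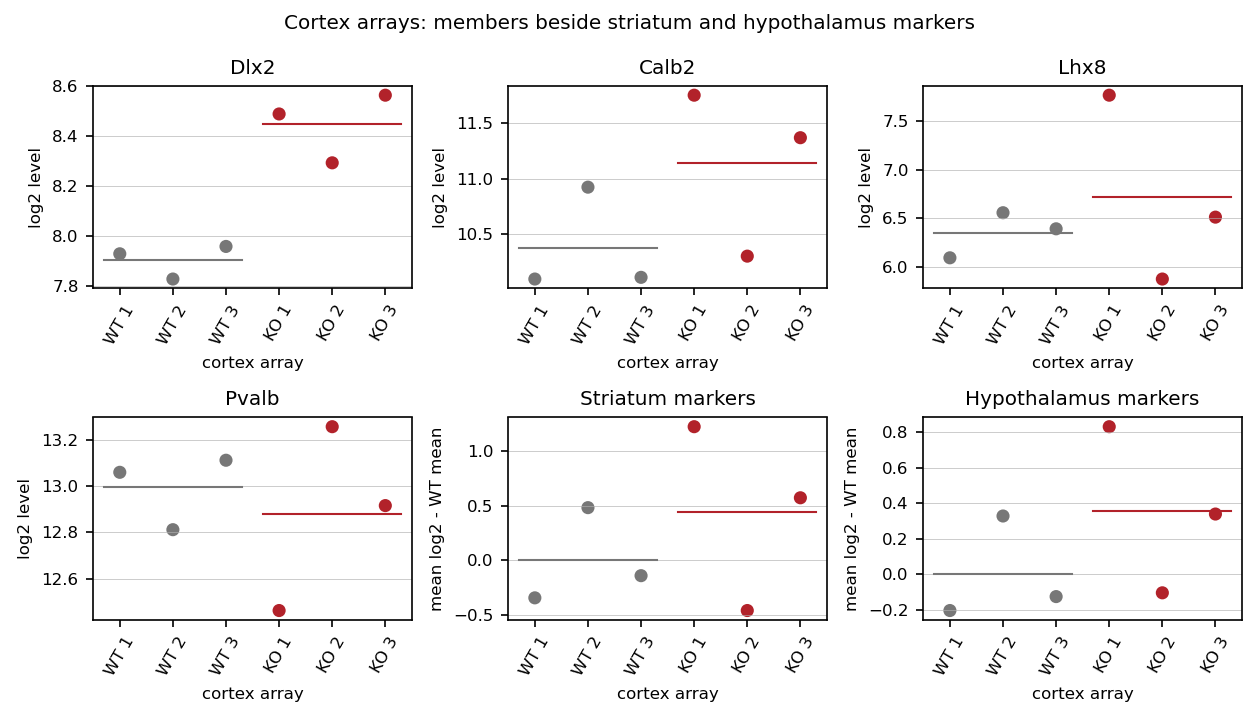
The 6 cortex arrays (x axis, grey wild type, red knockout, lines are group means): log2 levels of Dlx2, Calb2, Lhx8 and Pvalb, and the mean log2 of striatal and hypothalamic markers relative to the wild-type mean. Calb2 follows the marker panels in being high on knockout 1, knockout 3 and wild type 2. Dlx2 is higher on every knockout array than on every wild-type array, and among knockout arrays it is lowest on knockout 2. The y axes do not start at 0.

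The receptor subunits did not change past the test in cortex, and knockout replicate 3 departed from the other arrays for some of them. Gabra3 read 10.33, 10.00 and 9.28 in knockout and 10.18, 10.38 and 10.32 in wild-type cortex, giving -0.43 ± 0.20 (adjusted p = 0.317). Gabbr1 read 10.58, 10.46 and 9.35 in knockout and 10.26, 10.23 and 10.29 in wild-type cortex. For both genes a single knockout array was about 1 log2 unit below the wild-type mean. Gabrd read 10.62, 10.69 and 10.75 in knockout and 10.84, 10.88 and 10.96 in wild-type cortex, a difference without overlap of -0.21 ± 0.18 (adjusted p = 0.65). Gabrd lies on chromosome 4, as does Tas1r3, with 20 protein-coding genes between them. Genes whose cortex arrays did not overlap were Dlx1, Dlx2 and Reln (higher) and Gabrd and Nxph1 (lower), 5 of 20 beside 16.9% of all probes, 8.61% higher and 8.28% lower.

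In hippocampus no gene passed, and the 4 of smallest p were Gad1, Pvalb, Abat and Slc12a5. Gad1 read 13.56, 13.69 and 13.31 in wild type and 13.77, 13.91 and 13.70 in knockout. The groups did not overlap, with a difference of 0.27 ± 0.12 (adjusted p = 0.415), while a second Gad1 probe gave 0.13 ± 0.15. Pvalb read 12.16, 12.28 and 12.24 in wild type and 12.54, 12.44 and 12.53 in knockout, again without overlap (0.28 ± 0.14; adjusted p = 0.548). Abat read 12.78, 12.87 and 12.74 in wild type and 13.15, 13.03 and 12.86 in knockout, where the lowest knockout array fell below the highest wild-type one (0.21 ± 0.12; adjusted p = 0.587). Slc12a5 read 9.93, 10.36 and 9.45 in wild type and 9.48, 9.54 and 9.80 in knockout, with groups that overlapped (-0.31 ± 0.21; adjusted p = 0.72). Gad1, Lhx8 and Pvalb did not overlap, all higher, 3 of 20 beside 15.5% of all probes in either direction and 8.52% higher.

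In hypothalamus the 4 of smallest p were Gabre, Pvalb, Dlx1 and Gabrb2, and none passed. Gabre, the subunit detected in this region alone, read 7.46, 7.30 and 7.47 in wild type and 7.62, 7.64 and 7.91 in knockout. The knockout arrays were all higher, by 0.31 ± 0.091 (1.24-fold; adjusted p = 0.123), and the call was made when arrays were weighted by quality (0.30; adjusted p = 0.0346). Pvalb read 11.31, 11.22 and 11.25 in wild type and 11.61, 11.55 and 11.57 in knockout, also without overlap (0.32 ± 0.14; adjusted p = 0.452). Dlx1 read 11.05, 11.25 and 11.06 in wild type and 11.37, 11.20 and 11.21 in knockout, which overlapped (0.14 ± 0.11; adjusted p = 0.742). Gabrb2 read 8.55, 8.55 and 8.37 in wild type and 8.98, 8.62 and 8.41 in knockout, where replicate 1 set most of the difference (0.18 ± 0.16; adjusted p = 0.78). Gabre and Pvalb were the 2 of 20 without overlap, beside 19.1% of all probes in either direction and 10.6% higher.

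Pvalb was thus higher in knockout hippocampus and hypothalamus by like amounts without passing, and in cortex it was -0.12 ± 0.14, with knockout arrays at 12.46, 13.26 and 12.92. Its low cortex array, knockout replicate 1, was the one with the most striatal and hypothalamic marker signal. The average over regions was 0.16 ± 0.082 (adjusted p = 0.313); without knockout cortex replicate 1 it was 0.23 (adjusted p = 0.0267), and without the 3 cortex arrays named above 0.25 (adjusted p = 0.00712), where the cortex part rests on 1 knockout array chosen after seeing the data. Dlx2, called in cortex, averaged 0.18 log2 over the regions without passing. Gabre averaged 0.11 ± 0.052 (adjusted p = 0.263), which rests on hypothalamus since no other array detected it.

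**Figure D4:**
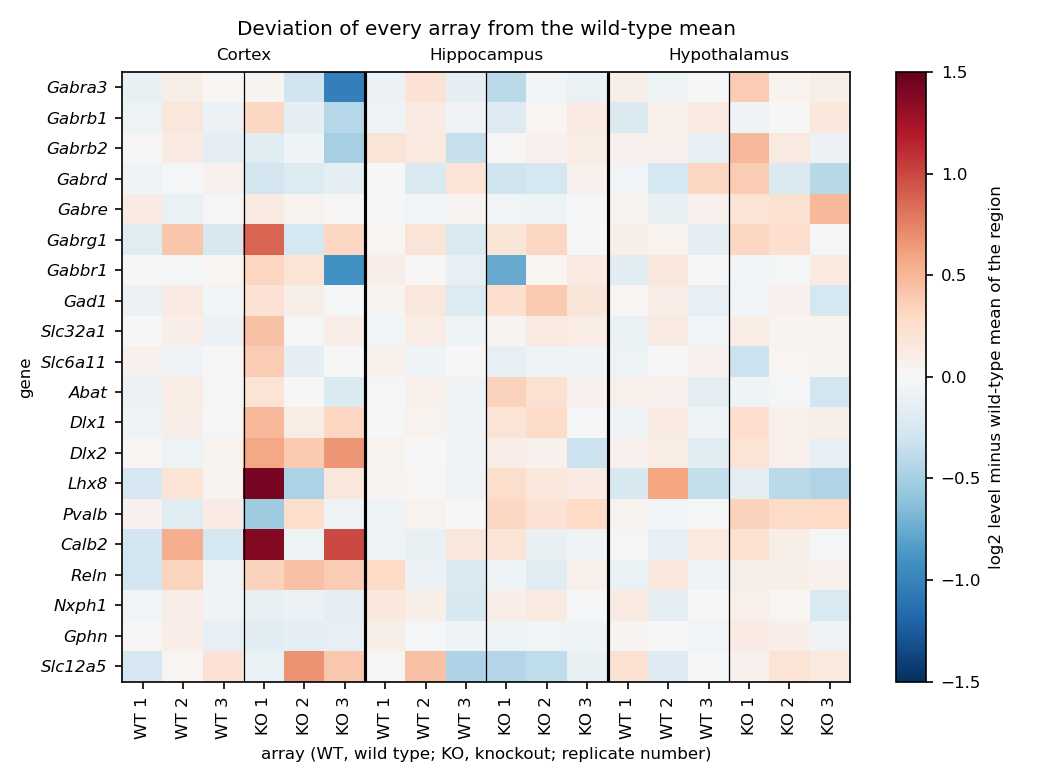
Each of 18 arrays (columns, by region, genotype and replicate) as log2 level minus the wild-type mean of its region (colour, limited to 1.5 either way) for the 20 measured genes (rows). The strongest single cells are knockout cortex arrays 1 and 3, high for Lhx8 (array 1) and Calb2 and low for Gabra3 and Gabbr1 (array 3).

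Scatter between replicate arrays limited what could be seen for a few genes. The within-group SD had a median of 0.18 log2 over the 20 genes, beside 0.17 for all probes. It was 0.46 for Lhx8, 0.38 for Calb2 and 0.35 for Gabbr1, against 0.072 for Gphn and 0.096 for Gabre. Much of it lay in knockout cortex, where the SD reached 0.97 for Lhx8, 0.75 for Calb2 and 0.68 for Gabbr1. Gabbr1 was also low on knockout hippocampus replicate 1, at 9.72 beside 10.50 and 10.61.

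The 22 further GABA signalling genes measured gave no call in any single region. Those of smallest p in cortex were Trak2, a kinesin adaptor that binds GABA-A receptors (-0.28 ± 0.084; adjusted p = 0.0981), and Glul, glutamine synthetase (0.41 ± 0.19; adjusted p = 0.30). In hippocampus they were Trak2 (-0.36 ± 0.084; adjusted p = 0.0509) and Slc38a1, a glutamine transporter (-0.31 ± 0.12; adjusted p = 0.382). Trak2 fell by 0.29 ± 0.048 on the log2 scale in the average over regions (adjusted p = 0.00113). It was the 1 call of that list, beside 6.02% of all probes called in the average. In hypothalamus Slc6a13 and Slc6a12, GABA and betaine transporters, gave -1.62 ± 0.43 and -2.32 ± 0.65 (adjusted p = 0.0854 and 0.104), and wild-type replicates 2 and 3 were far above replicate 1 for both. Without that replicate both passed (-2.37 and -3.43; adjusted p = 6.4e-05 and 0.000111).

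Of the 21 further interneuron genes measured, 1 was called in each region, each higher in the knockout. Shares of all probes called, in either direction, were 2.69% in cortex, 1.25% in hippocampus, 1.6% in hypothalamus and 6.02% in the average. Nr2f2, a nuclear receptor of caudally derived interneurons not above background on 2 of 3 wild-type cortex arrays, read 5.33, 6.81 and 5.65 in wild-type and 7.10, 6.81 and 7.53 in knockout cortex (1.22 ± 0.29; adjusted p = 0.0373). The wild-type array with raised striatal and hypothalamic markers, replicate 2, was also the wild-type array with the highest Nr2f2. Without the 3 cortex arrays named above the Nr2f2 difference was 1.32 (adjusted p = 0.0191), on 1 knockout array whose spread is taken from the other groups. Npas1, a transcription factor of forebrain interneurons detected on 12 of 18 arrays, was higher in hippocampus by 0.54 ± 0.12 (adjusted p = 0.0324) and in the average by 0.34 ± 0.068 (adjusted p = 0.00622; 0.29 and 0.0507 without the 3 cortex arrays named above). Vip, the peptide of another interneuron class and of hypothalamic clock neurons, read 9.94, 9.80 and 9.77 in wild-type and 10.35, 10.38 and 10.45 in knockout hypothalamus (0.55 ± 0.13; adjusted p = 0.0358). Vip lost its call when any of its 6 arrays was left out (adjusted p 0.0508 to 0.148), and Npas1 lost its call in hippocampus without 5 of the 6 and Nr2f2 without 4. The list's median was 0.026 in cortex, 0.026 in hippocampus and 0.049 in hypothalamus.

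Markers of other cell types were read on the same arrays. Of 11 oligodendrocyte markers measured, 3 were called lower in knockout cortex (median -0.37) and 6 in the average. The shares of all probes called there, in either direction, were 2.69% and 6.02%. Only 2 of the 11 had a higher mean in knockout cortex, and 1 in the average. Summed signals in cortex were 68368 to 77175 in knockout and 80306 to 88500 in wild type. In hypothalamus all 11 had a lower mean in the knockout, none past the test (median -0.31), with summed signals of 72642 to 77505 in knockout and 91590 to 95879 in wild type. Of 12 microglial markers, 1 was called lower in cortex and 2 in the average, while 5 and 3 of the 12 had a higher mean there. Their median in hypothalamus was -0.21, with summed signals of 5539 to 6296 in knockout and 6868 to 7092 in wild type. None of 13 astrocyte markers or 11 excitatory neuron markers was called in any region. The part of these shifts in the GABA gene values was not tested.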

How the data were processed

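Illumina bead array intensity values and detection p-values per probe were deposited without normalization, and the deposited score table holds each array's z score of log10 signal, as a recomputation matched to within 5.0e-10. GenomeStudio 2011.1 is named in the submitters' processing notes, and no slide or scan date was given, so batches could not be assessed. Log2 values were made with neqc of limma 3.58.1 (R 4.3.3; background from detection p-values, quantile normalization, offset 16). Probes with a detection p under 0.05 on 3 or more of 18 arrays were tested, 15476 of 25697. One limma fit with a mean for each of 6 groups (12 residual degrees of freedom), empirical Bayes moderation and Benjamini-Hochberg adjustment over all tested probes gave every adjusted p; the threshold was 0.05. Precision is limited by the few arrays per group. The p-values measure the spread between these arrays.

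Symbols came from the platform annotation, updated through Entrez IDs with the RefSeq table of GRCm38.p6; 23978 probes had 1 symbol, none had several and 1719 had none. Genes and lists were chosen with earlier results of these data known. Values on every array were given for genes past the threshold and for the 4 of smallest p per region, and for wild-type gradients and single outlying arrays picked after their values were seen. Of the related lists, genes past the threshold or the 2 of smallest p were named. The fit was tested on simulated data with 200 of 15476 probes shifted in 1 group: a log2 shift of 1 was called for 91%, 90% and 89% of shifted probes, and a shift of 0.5 for 41%, 45% and 46%, in simulated cortex, hippocampus and hypothalamus comparisons. The simulation gave every group the same spread and no differences between regions. Knockout cortex scattered more for several genes, so the cortex shares need not hold for the real arrays. Alternatives were no background correction, cyclic loess, no filter, the deposited z scores, only the compared arrays, array weights, the second probe, a replicate block and leaving out replicates. Figures used matplotlib.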

Additional observations from a re-analysis of the deposited data

How the results depend on the processing

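With 3 arrays per group, single arrays decide several calls. The cortex count of 1 became 0 with only the compared arrays, with array weights and without the 3 cortex arrays of high striatal and hypothalamic markers (chosen after seeing the data; Dlx2 adjusted p = 0.125, 0.0545 and 0.616, the last with 1 knockout array and the spread of other groups), and ranged from 0 to 2 as replicates were left out. The hypothalamus count of 0 became 1 with array weights, and the average count of 0 became 1 without those 3 cortex arrays and ranged from 0 to 2. Leaving out replicates gave 0 throughout for hippocampus, hypothalamus and the interaction, and 4 to 6, 13 to 15 and 12 to 16 for the wild-type pairs (cortex against hippocampus, cortex against hypothalamus, hippocampus against hypothalamus). Over all probes the cortex count of 417 was 63 with only the compared arrays and 159 to 660 as single cortex replicates were left out (660, 562 and 191 without knockout 1, 2 and 3; 172, 332 and 159 without wild type 1, 2 and 3). Of the wild-type calls, 4 of 6, 13 of 15 and 12 of 14 held in every alternative. These counts and the ranges for the wild-type pairs include Gabre, which the rule measured through hypothalamus alone. Among the values of named genes, 1172 kept direction and side of the threshold, 30 gained a call, 50 lost one and 16 changed sign.

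The changes of sign were all in differences that passed in no setting. For cortex minus hippocampus in wild type, Abat was -0.13 with its second probe and -0.013 without wild-type cortex replicate 2 or the 3 cortex arrays; Lhx8 was -0.025 with cyclic loess, -0.082 without those same arrays and -0.0065 without hippocampus replicate 3. Reln was 0.0046 and 0.0092 without cortex or hippocampus replicate 1. Gphn was 0.036 without cortex replicate 3 and 0.018 without hippocampus replicate 1. Slc12a5 was 0.010 without cortex replicate 1 and 0.11 without hippocampus replicate 2. As single replicates were left out, the other ends of these ranges were 0.083 for Abat, -0.31 for Reln, -0.079 for Gphn and -0.34 for Slc12a5. Lhx8 was 0.0060 for cortex minus hypothalamus without cortex replicate 1, 0.18 without hypothalamus replicate 2, and 0.15 for hippocampus minus hypothalamus without the latter, with other ends of -0.30 and -0.32. The cause of these changes was not tested.

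With the replicate number as a block, the count was 1 in cortex and 0 in every other knockout comparison. It was 6, 15 and 16 for the wild-type pairs, with Gabre included. Dlx2 in cortex kept its call (adjusted p = 0.0188). Gad1, hippocampus minus hypothalamus in wild type, gained a call (adjusted p = 0.0102), as did Gabrb2 (0.0471). Deviations of same-numbered knockout and wild-type arrays correlated between -0.28 and 0.22, over 0.1 in 3 of 9 pairs, so the numbers were not taken to pair the genotypes. Across regions the correlations were -0.15 to 0.37 in knockout (over 0.1 in 6 of 9 pairs, among them all 3 of hippocampus with hypothalamus) and -0.074 to 0.18 in wild type (3 of 9), a hint from the data that knockout numbers link some regions.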
